A study of Arabidopsis thaliana with 4 samples.

Results

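The 7 loci described here encode plant B3 DNA-binding proteins of the REM (REPRODUCTIVE MERISTEM) family. They are *VERDANDI* (*VDD*, AT5G18000), AT5G60140, AT5G60142, *REM34* (AT4G31610), *REM35* (AT4G31615), *REM36* (AT4G31620) and *VERNALIZATION1* (*VRN1*, AT3G18990). The loci were taken by their locus identifier from the 27206 loci of the RNA-Seq tables, and each has a single gene model. None of them passed the test between *stk* and wild type, for *REM35* in a fit without the filter on low values, and the largest difference was that of *REM36*, whose mean went from 1.54 RPKM in wild type to 0.953 RPKM in the mutant.

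The RNA-Seq experiment compared wild-type plants of the Columbia ecotype with the *stk* mutant (stk-/-), which lacks the function of the ovule identity gene *SEEDSTICK* through a small insertion near a splice site of an intron. RNA came from whole inflorescences together with siliques up to 5 days after pollination (DAP), from 2 biological replicates per genotype. Growth was at 22 °C, in short days with 8 h of light or in long days with 16 h of light, and the labels do not say which of these a library came from. The libraries were read as single 50-base reads, and the deposited unit is RPKM, in which reads are divided by exon length and by library size. Because whole inflorescences and siliques were pooled, fewer cells of a type and less RNA per cell cannot be told apart in these values.

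The B3 domain is a DNA-binding fold found in plants, and the proteins that carry it include the auxin response factors, the seed maturation regulators and the REM family. REM proteins often carry several B3 domains, and many of their genes lie in tandem on the chromosomes and are expressed in flowers and meristems. *VDD* was described as a direct target of MADS-domain complexes containing STK and is needed for the identity of the synergid and antipodal cells of the female gametophyte. *REM34* is transcribed in reproductive meristems, and *REM34* and *REM35* are known from work on the development of both gametophytes. *VRN1* keeps the floral repressor *FLC* silent after a cold period, and its protein binds DNA in vitro without sequence preference.

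The steps between low RPKM values returned library totals between 16965993 reads (wild-type replicate 1) and 33673029 reads (*stk* replicate 2), so the mutant libraries together held 1.69 times the reads of wild type. *STK* itself had 38.7 and 40.9 RPKM in wild type against 7.91 and 7.96 RPKM in the mutant, a 5.01-fold lower mean (limma log2 fold change -2.19, standard error 0.13, adjusted p = 0.0884). The headers of the deposited tables place 3 libraries in lane 1 and *stk* replicate 1 in lane 7, whereas the series description speaks of a single lane, and this conflict was not resolved. By the headers, the comparison within lane 1 sets *stk* replicate 2 against both wild-type libraries, and its log2 fold change is given for each of the 7 loci and for other genes with the largest differences. For *STK* it was -2.19. The summed level of 5 endosperm and seed coat genes was 44.0 and 49.2 RPKM in wild type against 93.6 and 105 RPKM in the mutant, and that of 3 genes of green tissue was 15937 and 16433 RPKM in wild type against 19122 and 20148 RPKM in the mutant. Of the former, the seed coat genes *BAN* and *TT2* and the endosperm gene *PHE1* had log2 fold changes of 1.1004, 1.03 and 0.78, and of the latter *RBCS1A* and *CAB1* had 0.26 and 0.29, with no adjusted p under 0.05 in limma. Most of the sum of the 5 endosperm and seed coat genes was *BAN*. It had 36.9 and 39.8 RPKM in wild type against 77.4 and 89.8 RPKM in the mutant. The paper reports *BAN* as a gene that STK binds and represses, so this sum is no neutral measure of seed tissue. The part of these shifts in the results below was not tested. *MYB98*, a regulator of synergid cells, stood between 0.102 and 0.189 RPKM in the 4 libraries. Of the other genes listed for the female gametophyte, *NTA* stood between 0.444 and 0.833 RPKM and *FER* between 80.1 and 86.3 RPKM. A place on this list does not mean that a gene is confined to those cells. The level of a single gene does not measure how many cells in which *VDD* acts were sampled.

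The 7 loci covered a 46.4-fold range of mean RPKM. RPKM is scaled to exon length, so levels can be compared between genes. *VRN1* was the highest, followed by AT5G60140, *VDD*, *REM34*, AT5G60142, *REM36* and *REM35*, and this order was identical in all 4 libraries. In 5 of the 6 neighbouring pairs of this order the lowest library of the higher gene lay above the highest library of the lower gene. The exception was AT5G60142 and *REM36*, whose levels overlapped.

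**Figure D1:**
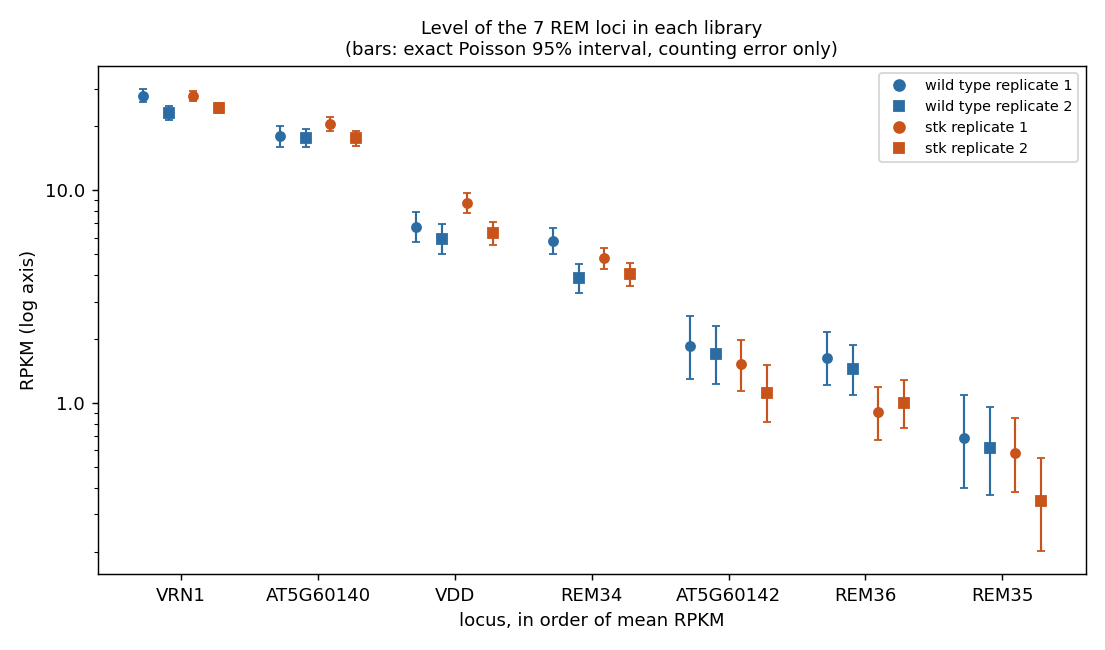
RPKM of each of the 7 loci (log axis) in the 4 libraries, with circles for replicate 1, squares for replicate 2, blue for wild type and orange for *stk*, and bars for the exact Poisson 95% interval of the reads behind each value. The loci descend from *VRN1*, at 23.1 to 27.9 RPKM, to *REM35*, at 0.345 to 0.684 RPKM, and both mutant points lie below both wild-type points for AT5G60142, *REM36* and *REM35*.

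*VDD* lies on the minus strand of chromosome 5 (chr5:5959900-5961642, TAIR10). Its level was 6.76 and 5.93 RPKM in wild type against 8.75 and 6.27 RPKM in the mutant, from 145, 158, 338 and 267 reads. The highest value belonged to *stk* replicate 1, and *stk* replicate 2 lay between the wild-type libraries, so the groups overlapped. The mean was 6.35 ± 0.59 RPKM (SD, n = 2) in wild type and 7.51 ± 1.75 RPKM (SD, n = 2) in *stk*. The log2 fold change of RPKM + 1 was 0.20 (standard error 0.19, 95% interval -0.27 to 0.67, adjusted p = 0.763 from limma), and within lane 1 it was -0.01. The spread of the mutant libraries, 1.39-fold, was thus larger than the ratio of the means, 1.18. The 95% interval of the ratio of pooled reads was 1.03 to 1.36, but it covers counting error only and not the spread between replicates.

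The 3′ end of *VDD* meets that of *TRP1* (AT5G17990), a tryptophan biosynthesis gene on the opposite strand. Their gene models share 6 bases in the deposited tables and 302 bases in the TAIR10.1 annotation. No use of strand was stated for the counting, so reads in the shared bases cannot be told apart. *TRP1* had 19.1 and 15.9 RPKM in wild type against 15.6 and 14.0 RPKM in the mutant. On its other side *VDD* is followed by *SAUR19* (AT5G18010), an auxin-induced growth gene, with 1.27 and 2.14 RPKM in wild type against 5.21 and 2.86 RPKM in the mutant (log2 fold change 0.87, adjusted p = 0.514 from limma, and 0.53 within lane 1).

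The sequence upstream of *VDD* is shown because the study used it as the positive control for chromatin immunoprecipitation of STK. MADS-domain proteins bind CArG boxes, and the region was searched for them on both strands with at most 1 mismatch. The first run below, read on the strand of the gene (chr5:5961806-5961988), goes from the decamer nearest to the amplicon, in capitals, to the end of the amplicon. The runs after it show that decamer and the other one in the 1000 bases before the gene model, 336 and 664 bases upstream.
VDD amplicon and nearest decamer: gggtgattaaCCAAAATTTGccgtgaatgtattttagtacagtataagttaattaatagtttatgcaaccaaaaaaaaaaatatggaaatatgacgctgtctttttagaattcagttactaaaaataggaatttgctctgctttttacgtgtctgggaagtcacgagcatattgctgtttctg
VDD decamer at 336 bases: gggtgattaaCCAAAATTTGccgtgaatgt
VDD decamer at 664 bases: gtatacattgCCCAAAAAGGaaaactatag
The amplicon spans 99 bases (chr5:5961806-5961904), 164 to 262 bases upstream. One of its primers differs from the reference at 1 base. The amplicon holds 0 such decamers, and the nearest lies 64 bases beyond its distal end. Both decamers carry 1 mismatch to the CArG box. The study names a particular CArG box of *VDD* as its positive control. The search here covered only the 1000 bases before the gene model and the amplicon, and this conflict was not resolved. A match is a description of the letters and not a binding site.

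AT5G60140 and AT5G60142 are neighbours on the minus strand of chromosome 5 (chr5:24214077-24215453 and chr5:24216180-24217691), 726 bases apart. Their predicted proteins, of 328 and 346 residues, are 49.1% identical over 320 aligned residues. The reference annotation gives both as AP2/B3-like factors with no symbol. Their levels differed in every library.

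AT5G60140 had 18.0 and 17.6 RPKM in wild type against 20.6 and 17.6 RPKM in the mutant, from 332 to 685 reads per library. Only *stk* replicate 1 stood above the other libraries, and the groups overlapped. The mean was 17.8 ± 0.26 RPKM (SD, n = 2) in wild type and 19.1 ± 2.13 RPKM (SD, n = 2) in *stk*. The log2 fold change was 0.09 (standard error 0.15, 95% interval -0.27 to 0.45, adjusted p = 0.861 from limma). Within lane 1 the log2 fold change was -0.02.

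AT5G60142 had 1.86 and 1.71 RPKM in wild type against 1.52 and 1.12 RPKM in the mutant, from 36, 41, 53 and 43 reads. Both mutant libraries lay below both wild-type libraries. The ratio of the means was 0.740. In limma the log2 fold change was -0.27 (standard error 0.15, 95% interval -0.65 to 0.11, adjusted p = 0.634), and it was -0.39 within lane 1. This difference did not pass the test, and the counting interval of the pooled read ratio, 0.541 to 1.01, included a ratio of 1.

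AT5G60150, which starts 290 bases away on the opposite strand, stood at 3.50 and 3.35 RPKM in wild type against 2.40 and 1.95 RPKM in the mutant (log2 fold change -0.48, adjusted p = 0.513 from limma, and -0.59 within lane 1). Of the 7 loci, AT5G60142 was the only one with a perfect CArG box in the 1000 bases before its gene model, and it lies between these divergent genes, 192 bases upstream of AT5G60142 and 98 bases from the start of AT5G60150. It is shown in capitals with its surroundings on the strand of AT5G60142 (chr5:24217829-24217928).
AT5G60142: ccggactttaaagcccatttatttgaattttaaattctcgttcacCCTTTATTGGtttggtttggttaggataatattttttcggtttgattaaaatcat
A perfect CArG box occurred in 7.50% of the 26710 upstream regions of this length, and one with at most 1 mismatch in 77.6%. Among the 7 loci the counts were 1 and 6, and *REM35* had none. No binding data for these sites were analysed here.

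*REM34*, *REM35* and *REM36* open a tandem run of 9 B3 genes on chromosome 4 that spans 27.7 kb, from *REM34* to AT4G31690, with the ubiquitin protease gene *UBP18* among them. *REM35* and *REM36* encode proteins of 487 and 494 residues with 62.6% identity over 479 aligned residues, the closest pair of the 7. *REM34*, of 517 residues, shares 40.2% with *REM36* and 39.7% with *REM35*. Of the 9 genes, 6 had a mean under 1 RPKM. AT4G31650 was the highest, with 10.3 and 8.26 RPKM in wild type against 8.65 and 7.41 RPKM in the mutant, while AT4G31630, AT4G31640, AT4G31660 and AT4G31680 were each at 0 in at least 1 library.

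**Figure D2:**
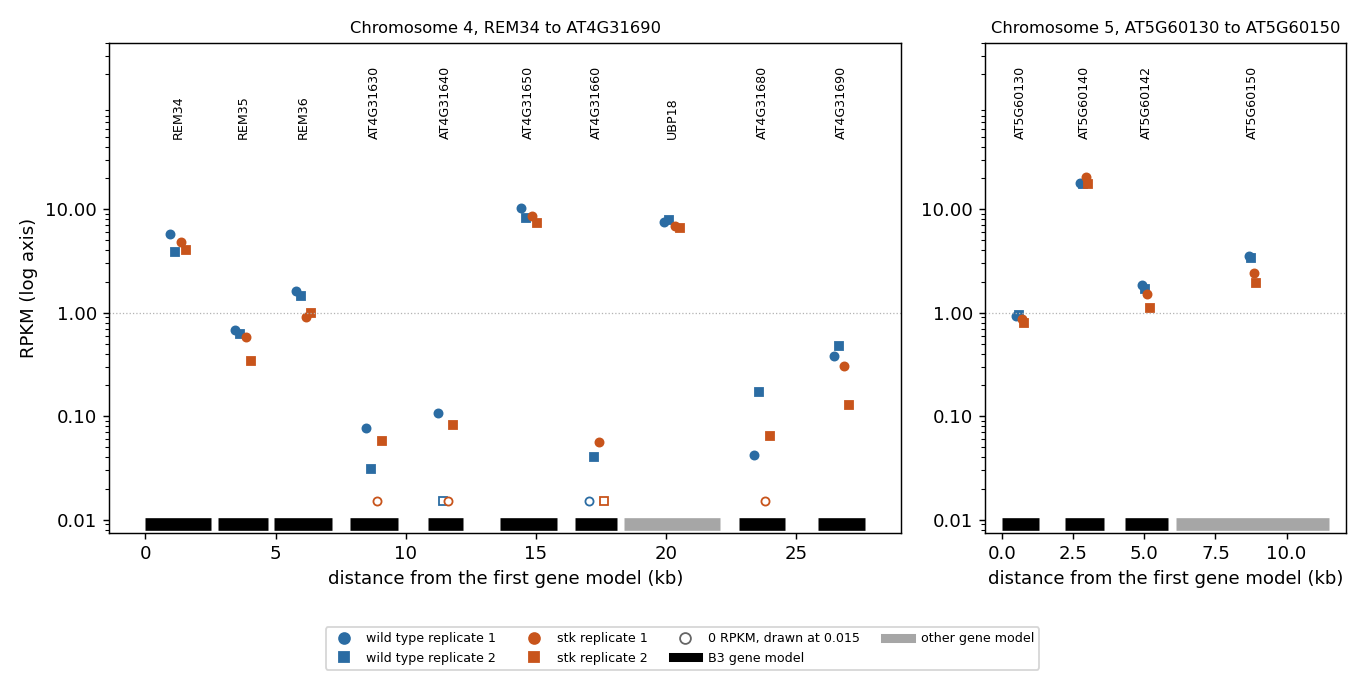
RPKM (log axis) of the genes in the tandem run on chromosome 4 and in the group on chromosome 5, plotted against distance in kb from the first gene model, with bars at the base for gene models (black for B3 genes, grey for others). Symbols are as in the plot of levels by library, and open symbols mark 0 RPKM. *REM34* and AT4G31650 (8.67 RPKM on average) and AT5G60140 rise above the neighbouring B3 genes of their run in every library.

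*REM34* (chr4:15317499-15320020, plus strand) had 5.81 and 3.87 RPKM in wild type against 4.80 and 4.03 RPKM in the mutant, from 197, 163, 293 and 271 reads. The wild-type libraries were the highest and the lowest of the 4, and both mutant libraries lay between them. The wild-type libraries differed 1.501-fold from each other, and the ratio of the means was 0.912. The log2 fold change was -0.09 (standard error 0.20, 95% interval -0.60 to 0.41, adjusted p = 0.905 from limma) and -0.20 within lane 1.

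*REM35* (chr4:15320297-15322194, minus strand) was the least abundant, with 0.684 and 0.616 RPKM in wild type against 0.581 and 0.345 RPKM in the mutant. These values rest on 17, 19, 26 and 17 reads, and the level that 3 reads would give was between 0.0609 and 0.121 RPKM. Both mutant libraries lay below both wild-type libraries. *REM35* did not reach the mean of 1 RPKM required for the test, and without that filter limma put its log2 fold change at -0.18 (standard error 0.13, adjusted p = 0.701), with -0.29 within lane 1. Its counting interval of the pooled read ratio, 0.444 to 1.13, was the widest of the 7, and the difference was not detectable at this depth.

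*REM36* (chr4:15322452-15324681, minus strand) had 1.63 and 1.44 RPKM in wild type against 0.904 and 1.001 RPKM in the mutant, from 50, 55, 50 and 61 reads. The wild-type mean was 1.54 ± 0.13 RPKM (SD, n = 2) and the *stk* mean 0.953 ± 0.069 RPKM (SD, n = 2), and the groups did not overlap. The ratio of the means was 0.620, with a counting interval of 0.475 to 0.825 for the pooled reads. The log2 fold change was -0.38 (standard error 0.14, 95% interval -0.71 to -0.04), which did not pass after adjustment over all loci (adjusted p = 0.515 from limma). Within lane 1 it was -0.34, close to the pooled value. Of the 50-base windows in its exons, 2.89% also matched *REM35* with at most 2 mismatches, and reads from such windows may have been shared between them. For the other 6 loci the share of windows with a second match lay between 0 (AT5G60142 and *REM34*) and 8.71% (*VRN1*).

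*VRN1* (chr3:6548869-6551853, minus strand) was the most abundant, with 27.9 and 23.1 RPKM in wild type against 27.8 and 24.5 RPKM in the mutant, from 720 to 1290 reads per library. In each genotype replicate 1 was the higher, and the mutant libraries lay within the range of wild type. Means were 25.5 ± 3.39 RPKM (SD, n = 2) and 26.1 ± 2.35 RPKM (SD, n = 2). The log2 fold change was 0.03 (standard error 0.16, 95% interval -0.37 to 0.43, adjusted p = 0.957 from limma) and -0.05 within lane 1. At these counts the precision was set by the spread between replicates, as the counting interval of the pooled read ratio was 0.965 to 1.099. The neighbours of *VRN1*, *ETP1* and AT3G19000, had log2 fold changes of 0.07 and -0.07, and *UTr7*, next to *REM34*, had 0.08.

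The comparison of *stk* with wild type can be read across the 6 loci that were tested among 19044. None had an adjusted p under 0.05 in limma, as was the case for all loci (0 called, 0.0%). None passed with Baggerley's test, by which 67 loci of the whole table passed. That test took summed RPKM, 586278 to 680016 per library, as library totals in place of the read totals. Its counting variance was thus too large for weakly and strongly expressed loci alike, and the failure of the 6 to pass it decides nothing. At an unadjusted p under 0.05 in limma, *REM36* was the single call, lower in *stk*, against 3.53% of all loci tested called lower and 5.66% called higher. None of the 6 met the study's thresholds, an unadjusted p of at most 0.05 with means at least 2-fold apart, applied here to the p of limma in place of the study's Baggerley's test. By limma 3.1% of loci met them as higher and 0.326% as lower in *stk*, and with Baggerley's test 104 loci met them, again none of the 6. Of the 6, 3 had a negative log2 fold change, and their median was -0.03 beside -0.05 for all loci tested. Including *REM35*, 3 of the 7 had both mutant libraries below both wild-type libraries, against 23.7% of the 25095 loci above 0 in any library, and 0 of the 7 had both above, against 17.3%. The smallest two-sided p of an exact permutation test is 0.333 for groups of this size.

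**Figure D3:**
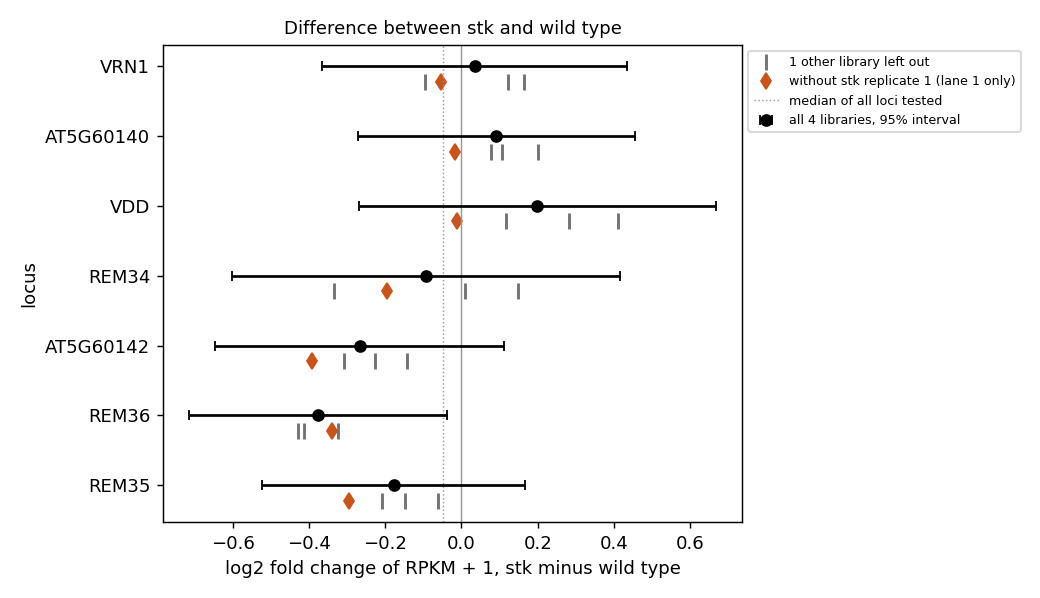
Log2 fold change of RPKM + 1 (*stk* minus wild type) for each locus, with the 95% interval from limma as black bars, grey ticks for fits with 1 other library left out and orange diamonds for the comparison within lane 1. The interval of *REM36*, from -0.71 to -0.04, is the only one of the 7 that leaves out 0, and for *VDD*, AT5G60140 and *VRN1* the diamond lies on the other side of 0 from the black point.

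Another 36 REM loci were present in the tables, and 22 of them were tested. None passed at an adjusted p under 0.05 in limma, and at an unadjusted p under 0.05, 4 were lower and 2 were higher in *stk*. Their median log2 fold change was -0.16, with 17 of 22 negative, where 59.8% of all loci tested were negative. Both mutant libraries lay below both wild-type libraries at 8 of the 22, beside 26.8% of all loci tested, and above them at 2, beside 16.3%.

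The 8 REM loci that lay lower included AT1G49475, next to *RTV1*, with 1.43 and 1.36 RPKM in wild type against 0.832 and 0.526 RPKM in the mutant (log2 fold change -0.52, adjusted p = 0.513 from limma). AT2G16210 had 10.1 and 7.34 RPKM in wild type against 6.39 and 5.02 RPKM in the mutant (log2 fold change -0.53, adjusted p = 0.526). AT2G24700, in a tandem run on chromosome 2, had 4.56 and 4.01 RPKM in wild type against 3.12 and 2.43 RPKM in the mutant (log2 fold change -0.49, adjusted p = 0.514). On the log2(RPKM + 1) scale these differences exceeded that of *REM36*. By the ratio of means, among these loci only AT1G49475, at 0.485, did so. AT2G16210 stood at 0.653 and AT2G24700 at 0.648, beside 0.620 for *REM36*. The ratio was also below that of *REM36* at AT5G57720, with 0.556, and at AT5G09780, with 0.617. Within lane 1 the log2 fold changes of AT1G49475, AT2G16210 and AT2G24700 were -0.65, -0.68 and -0.62. AT5G57720 had a log2 fold change of -0.54 (adjusted p = 0.528), and AT2G24690, AT4G34400, AT4G01580 and AT5G09780 had log2 fold changes between -0.25 and -0.40.

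The 2 REM loci that lay higher were AT5G25470, at 3.28 and 2.77 RPKM in wild type against 4.75 and 4.81 RPKM in the mutant (log2 fold change 0.52, adjusted p = 0.502), and AT5G18090, at 2.27 and 2.40 RPKM in wild type against 3.72 and 3.64 RPKM in the mutant (log2 fold change 0.49, adjusted p = 0.502). Within lane 1 they were 0.53 and 0.48. AT5G18090 is the locus with which *VDD* shared 1.03% of its 50-base windows. The REM loci of highest level outside the 7 were *RTV1*, AT2G35310 and AT3G06220, with means of 34.8, 18.6 and 17.3 RPKM, so *VRN1* ranked below its relative *RTV1*.

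**Figure D4:**
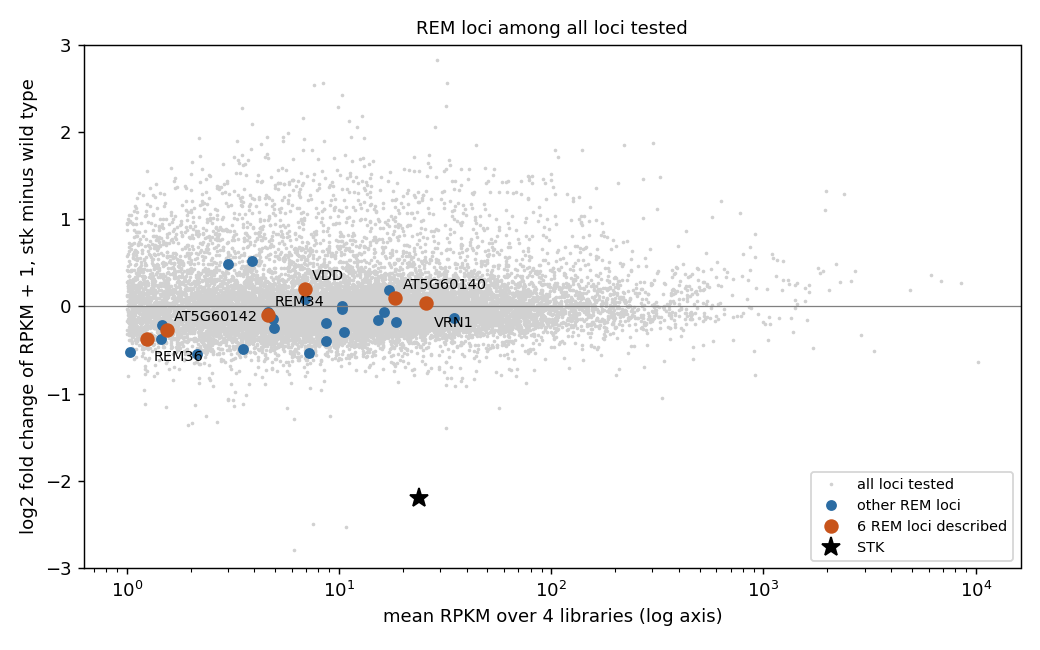
Log2 fold change of RPKM + 1 (*stk* minus wild type) against mean RPKM (log axis) for all loci tested in grey (1 locus lies outside the range shown), the other REM loci in blue, 6 of the 7 loci described in orange and *STK* as a star. The orange points lie between -0.38 and 0.20 within the grey cloud, while *STK* lies apart at -2.19.

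Genes of the pathways of *VDD* and *VRN1* were read beside them. Of 9 genes of the ovule MADS complex, none passed at an adjusted p under 0.05 in limma. *SEP3*, which encodes a partner of STK in these complexes, had 140 and 126 RPKM in wild type against 274 and 193 RPKM in the mutant (log2 fold change 0.79, adjusted p = 0.493, and 0.54 within lane 1). Of 10 genes listed for the female gametophyte, 4 were tested and none passed. Among them the egg cell gene *EC1.4* stood at 1.23 and 1.11 RPKM in wild type against 1.96 and 1.93 RPKM in the mutant (log2 fold change 0.44, adjusted p = 0.513, and 0.44 within lane 1).

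Of 7 vernalization and flowering time genes tested, none passed the adjusted threshold. *FLC*, the floral repressor that *VRN1* keeps silent, had 3.92 and 2.56 RPKM in wild type against 1.98 and 1.304 RPKM in the mutant (log2 fold change -0.68, adjusted p = 0.514 from limma, and -0.86 within lane 1). *FT*, which encodes the mobile floral signal, had 27.0 and 24.0 RPKM in wild type against 59.4 and 48.6 RPKM in the mutant (log2 fold change 1.05, adjusted p = 0.297 from limma, and 0.91 within lane 1). *VRN2*, a Polycomb gene of the same pathway, had a log2 fold change of -0.04, near that of *VRN1*. Among genes of other tissues, the tapetum regulator *AMS* had 33.7 and 24.1 RPKM in wild type against 17.8 and 14.7 RPKM in the mutant (log2 fold change -0.78, adjusted p = 0.502 from limma, and -0.91 within lane 1). Of the 5 tapetum and pollen genes tested, 4 had a negative log2 fold change, with *MS1* at -0.16 and *PPME1* at -0.02. The exception, *A9*, had 30.8 and 23.9 RPKM in wild type against 75.3 and 18.4 RPKM in the mutant (log2 fold change 0.45, and -0.54 within lane 1). Of the 7 meristem and young flower genes 6 were tested and 5 of these had a negative log2 fold change, with *AP1* at -0.28 and *FUL* at 0.20.

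The genes whose profile over the 4 libraries was most like that of *VDD* were AT1G72010, of the TCP transcription factor family, the glutathione transferase gene *GSTU19* and AT2G02500, an enzyme gene of isoprenoid synthesis. Their Euclidean distances to *VDD* on centred log2(RPKM + 1) values were 0.018, 0.022 and 0.027. For *REM34* they were AT4G24320, *MTSSB* and AT1G76120, at 0.018, 0.024 and 0.031, and for *VRN1* they were *DRT112*, *LUL1* and AT5G62620, at 0.013, 0.013 and 0.018. Over only 4 libraries such likeness was common, since 189, 196 and 792 loci lay within a distance of 0.1 of *VDD*, *REM34* and *VRN1*.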

How the data were processed

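The 4 deposited expression tables hold RPKM values for 35182 gene models, which the authors made with CLC Genomics Workbench from reads mapped to TAIR10 with at most 2 mismatches, sharing out reads that fit up to 10 places. Quality was checked with FastQC per the submitters' processing notes. Values of all models of a locus were added. Library totals were recovered from the steps of RPKM at loci with a single model, where 98.7% to 98.9% of low values came out whole within 0.05 reads. Reads and counting intervals (exact Poisson, and exact binomial for pooled ratios) derive from these totals and cover counting error only. PCR copies are not independent molecules.

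Log2(RPKM + 1) of the 19044 loci with a mean of at least 1 RPKM was compared with limma 3.58.1 in R 4.3.3, with Benjamini-Hochberg adjustment over all loci tested. The deposited values are RPKM and not counts, and the main comparison used no count model. Recovered reads served only for the read numbers and counting intervals given. Baggerley's test, with summed RPKM as library totals, was run only as an alternative. A fold change on this scale understates that of weakly expressed loci. *REM35*, under the filter, was read from the fit of all loci. For *REM36* the exon length that gave whole reads, 1809 bases, differs from the 1815 annotated bases inside the gene model.

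The loci and 8 lists were chosen with earlier results of these data known. Named from the lists are loci with an unadjusted p under 0.05 or, in their absence, the most abundant, and of the other REM loci those that met a call rule or ranked among the 3 highest. Loci beside a member and the 3 nearest profiles (among loci whose range over libraries was at least 0.5 of the member's) are also named. *VRN2*, *MYB98*, *NTA*, *FER*, *A9*, *MS1*, *PPME1* and the B3 genes of the chromosome 4 run were chosen after their values were seen. Positions come from the deposited tables, and sequences and proteins were read or translated from the TAIR10.1 reference of RefSeq, which shares chromosome coordinates with TAIR10. Exon windows were mapped with bwa 0.7.19, and other steps used Python 3.11.15. The labels call the samples biological replicates. The GO tables hold the authors' own enrichment results and were not used.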

Additional observations from a re-analysis of the deposited data

How the results depend on the processing

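Of the 7 loci, those that each alternative tested gave 0 with an adjusted p under 0.05 and 0 that met the study's criteria. *REM35* was tested without the filter alone or with a pseudocount, scaling, trend, block or left-out-library alternative, and neither *REM35* nor *REM36* was in the fit of loci with at least 1 RPKM in every library. For the count of loci with groups apart, 3 in the main comparison, quantile normalization and median-ratio scaling also gave 3. The adjusted p of single loci was 0.293 or higher over the alternatives of limma and Baggerley's test. Their log2 fold changes kept their sign in 86 of 92 alternative values, and all 6 reversals came from leaving out 1 library. Many of the 92 could not differ from the main value, so this count does not measure robustness. A changed filter, a variance trend or a replicate block left the fold change as it was. So did the most abundant gene model, as each of these loci has a single model. With libraries left out in turn, values ranged from -0.01 to 0.41 for *VDD*, from -0.02 to 0.20 for AT5G60140, from -0.34 to 0.15 for *REM34* and from -0.10 to 0.16 for *VRN1*, and stayed negative for AT5G60142 (-0.39 to -0.14), *REM35* (-0.29 to -0.06) and *REM36* (-0.43 to -0.32). Without *stk* replicate 1, the library of lane 7 by the headers, the values were -0.012 for *VDD*, -0.017 for AT5G60140 and -0.05 for *VRN1*. *REM34* was at 0.15 without wild-type replicate 1 and 0.01 without *stk* replicate 2, and *VRN1* at -0.10 without wild-type replicate 2. With a pseudocount of 0.1, *REM35* was at -0.45 and *REM36* at -0.63, and by the ratio of means used with Baggerley's test *REM36* was at -0.69.

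Over all loci, the count with an adjusted p under 0.05 was 0 in the main comparison, 5 after quantile normalization, 4 with the exon length trend removed, 1 with trended limma and 67 with Baggerley's test, and from 0 to 1575 with a library left out (336 without *stk* replicate 1 and 1575 without *stk* replicate 2). The count meeting the study's criteria was 652, against 104 with Baggerley's test and from 294 (without wild-type replicate 1) to 1305 (without *stk* replicate 2) with a library left out. In these fits the lone library of a genotype is assumed to vary like the others. The deviations of same-numbered libraries had a correlation of -0.13. This value does not decide whether the numbers pair the samples, because by the headers *stk* replicate 1 alone came from another lane. A replicate block left 0 loci past the adjusted threshold and 496 meeting the criteria, with 0 of the 6 loci tested in either. A block with crossed pairs, added after seeing the data, gave 921 and 887, again with 0 of the 6.

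With 2 libraries per genotype, differences within the 95% intervals given, up to 0.67 on the log2 scale for *VDD*, were not excluded. These intervals are unadjusted and set no size above which a difference would pass the adjusted test. *STK* itself, at a log2 fold change of -2.19, had an adjusted p of 0.0884 from limma. *REM35* and AT5G60142 rest on 17 to 53 reads per library. *VRN1* and AT5G60140 have at least 332 reads in each, so the replicate spread limits them.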
